A study of Mus musculus with 24 samples.

Results

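The 10 genes described here are the 5 subunits of the transcription factor NF-kB (Nfkb1, Nfkb2, Rela, Relb and Rel), 4 of its inhibitors (Nfkbia, Nfkbie, Nfkbiz and Tnfaip3) and the cytokine gene Tnf. They were chosen by name, out of 35519 genes and with earlier results of these data known. Reads were summed over the annotated transcripts of each. RNA came from microglia sorted as Ly6C-CD11b+Fcrls+ cells from whole brain of C57BL/6 mice, with 1000 cells in each of 24 Smart-Seq2 libraries. The groups were female NL4-/- phagocytosis, female WT phagocytosis, male NL4-/- phagocytosis and male WT phagocytosis, with 4 libraries each, and female NL4-/- control, female WT control, male NL4-/- control and male WT control, with 2 each. NL4-/- mice lack neuroligin-4, a synaptic adhesion protein, and the labels name no restriction of the deletion to a cell type. The labels say neither what the phagocytosis cells had engulfed nor whether uptake took place in the animal or in culture, and they give no age. None of the 116023 matched transcripts belonged to the knocked-out gene Nlgn4l (0 transcripts), so the deletion itself is not analysed here. In pools of cells, fewer cells that express a gene and less RNA per cell cannot be told apart.

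NF-kB proteins act as dimers that inhibitor proteins hold in the cytoplasm. In the canonical pathway, signals from TNF or Toll-like receptors lead to destruction of the inhibitor IkBα, the product of Nfkbia, and dimers containing p65 (Rela) and p50 (made from Nfkb1) enter the nucleus. Among the genes they switch on are Nfkbia and Tnfaip3, which close a negative feedback loop, and Tnf, which can stimulate the same pathway again. In the non-canonical pathway, p100 (Nfkb2) is processed to p52, which pairs with RelB. Microglia are a main source of TNF in the brain.

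Total reads in matched genes ran from 419603 to 1010655 per library, so that 1 read was worth 0.989 to 2.38 CPM (reads scaled to a common library total). All 10 genes had reads in every library, from 3 reads for the least covered (Tnfaip3 in a control library) to 552 for the best covered (Nfkbia). The microglial identity given by the labels was checked with 15 marker genes, whose summed level was 29834 to 60890 CPM in phagocytosis libraries and 44138 to 61352 CPM in control libraries. Satellite-like transcripts took 1.52 to 16.3% of reads in phagocytosis libraries and 4.07 to 23.3% in control libraries. They exceeded 20% in 3 control libraries (22.2% in female NL4-/- control 1, 21.5% in male NL4-/- control 1 and 23.3% in male WT control 2). One of these, male WT control 2, also stood apart in the genes described here: it held the highest control value for 7 of the 10 (Nfkb2, Relb, Nfkbia, Nfkbie, Nfkbiz, Tnfaip3 and Tnf). Results called or named below that moved by over 1.5 times without it are given both ways. The design text calls the samples biological replicates.

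On genome build GRCm38, Nfkb1 lies at chr3:135584655-135691547, Nfkb2 at chr19:46304320-46312385, Rela at chr19:5637483-5648130, Relb at chr7:19606217-19629438 and Rel at chr11:23736847-23770970. Of the inhibitors, Nfkbia lies at chr12:55489410-55492647, Nfkbie at chr17:45555703-45563169, Nfkbiz at chr16:55811375-55838899 and Tnfaip3 at chr10:19000910-19015657. Tnf lies at chr17:35199381-35202007. All 10 are annotated as protein-coding. Nfkb2 overlaps Psd on the opposite strand, and reads without strand cannot be divided between them; Nfkb1 overlaps the unclassified gene Gm43430 on its own strand.

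Promoter sequences of 7 of the 10 genes were found in the RefSeq table (GRCm38.p6). In the 250 bases before an annotated start, the kB decamer, the 10-base consensus bound by NF-kB dimers, occurred on either strand in 5 of these 7 (Nfkb2, Rel, Nfkbia, Nfkbie and Tnfaip3), with none in Rela or Tnf. It was present in 8.23% of the 27025 genes in the table. Some windows held annotated exon bases: 250, 167 and 234 in those of Nfkb2, and 110 in the Tnfaip3 window with matches. Another Tnfaip3 window had 0 matches. Genes with several windows, such as these, had more chances of a match. The promoters of 3 genes that changed between phagocytosis and control are printed, 5′ to 3′ on the gene's strand, with bases of a decamer in capitals. In Nfkbia (chr12:55492648-55492897, minus strand) the decamer begins 29 bases before the start and reads on the opposite strand. In Rel (chr11:23770971-23771219, minus strand) overlapping matches begin 92 and 91 bases before the RefSeq start, the first of them on both strands. The printed 249 bases leave out 1 exon base next to that start. For Tnf (chr17:35202008-35202257, minus strand) the absence of capitals says only that these letters are not in this window.
Nfkbia: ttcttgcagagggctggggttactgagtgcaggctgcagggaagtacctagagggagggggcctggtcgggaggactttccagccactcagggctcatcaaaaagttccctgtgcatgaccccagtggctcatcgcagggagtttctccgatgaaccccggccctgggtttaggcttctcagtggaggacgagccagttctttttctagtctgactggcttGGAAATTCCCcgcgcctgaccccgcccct
Rel: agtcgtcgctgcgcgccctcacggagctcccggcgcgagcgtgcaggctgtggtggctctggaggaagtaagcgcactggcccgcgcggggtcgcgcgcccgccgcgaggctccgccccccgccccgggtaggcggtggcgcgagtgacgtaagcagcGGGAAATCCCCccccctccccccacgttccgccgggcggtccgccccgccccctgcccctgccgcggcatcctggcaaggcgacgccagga
Tnf: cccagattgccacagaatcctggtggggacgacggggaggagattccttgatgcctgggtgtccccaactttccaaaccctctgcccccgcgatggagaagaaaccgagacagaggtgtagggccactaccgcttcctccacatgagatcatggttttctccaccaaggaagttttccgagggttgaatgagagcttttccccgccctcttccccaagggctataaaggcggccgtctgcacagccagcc

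Per transcript length, Nfkbia was the most abundant of the 10 transcripts, with 318 ± 140 TPM (reads per transcript length, scaled to a common total) in phagocytosis (SD, n = 16) and 177 ± 88.4 TPM in control (SD, n = 8). It exceeded the next gene in 16 of 16 phagocytosis and 8 of 8 control libraries. Behind it, the order differed between the states: Tnf came next in phagocytosis at 73.0 ± 34.7 TPM, whereas in control it ranked behind Nfkb1 and Rela at 28.5 ± 14.97 TPM. In phagocytosis the remaining order was Nfkb1 (44.3 TPM), Rela (39.6), Nfkbiz (25.6), Relb (22.0), Nfkb2 (18.3), Nfkbie (10.3), Tnfaip3 (8.23) and Rel (5.63). In control it was Nfkb1 (46.7 TPM), Rela (29.0), Tnf, Nfkbiz (16.3), Relb (14.5), Nfkb2 (12.8), Nfkbie (11.5), Tnfaip3 (6.49) and Rel (5.91). Most neighbours in these orders differed by less than the larger of their SDs. The exceptions were Nfkbia over Tnf and Rela over Nfkbiz in phagocytosis, and Nfkbia over Nfkb1 and Nfkb1 over Rela in control. Among the 5 subunits alone, Nfkb1 supplied 34.5 ± 7.18% of their TPM in phagocytosis and 43.1 ± 7.41% in control, and Rela 30.8 ± 6.38% in phagocytosis and 26.6 ± 4.09% in control.

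**Figure D1:**
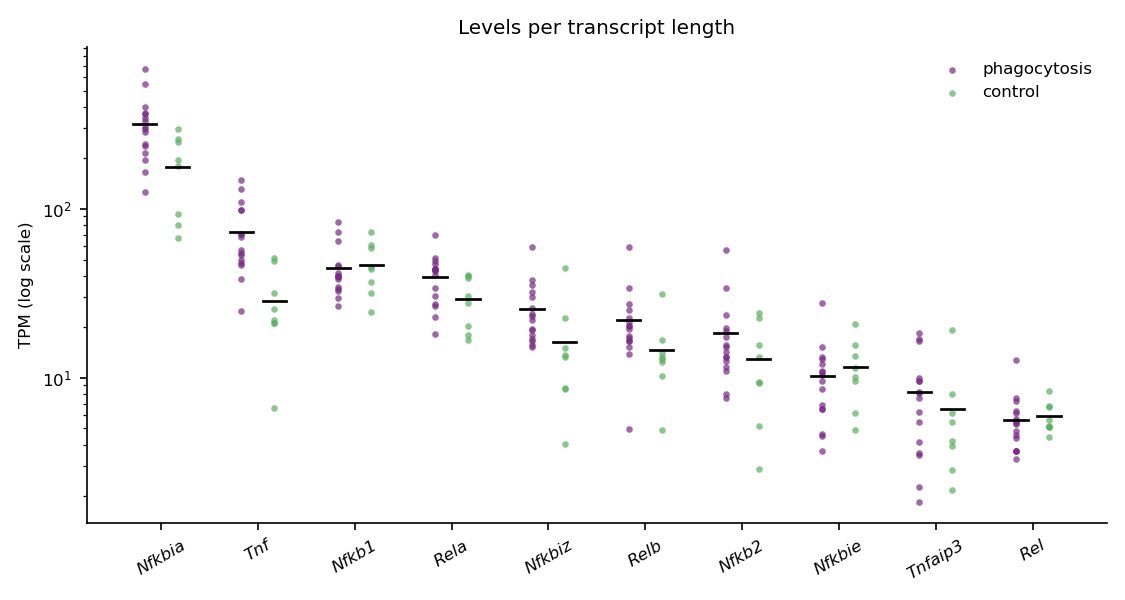
TPM (log axis) of the 10 genes in 16 phagocytosis and 8 control libraries, ordered by mean level in phagocytosis; each point is a library and each bar the mean. Nfkbia lies above every other gene in both states, and Tnf is second in phagocytosis (73.0 TPM) but ranks behind Nfkb1 and Rela in control (28.5 TPM).

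Between the states, averaged over the 4 sex and genotype groups, 4 of the 10 genes changed: Tnf and Nfkbia were higher in phagocytosis, and Rel and Nfkb1 were lower. Over all 9803 genes tested, 13.6% were called (1332 genes, 8.41% higher and 5.18% lower). The median log2 fold change was 0.22 over the 10 genes and -0.01 over all genes. Without female WT control 2 the call over all genes fell to 781 genes, and the 10 genes then held 1 call (Tnf). Values below are TMM-normalised CPM, and adjusted p-values are from edgeR over all genes tested. Whether libraries of the groups compared overlapped is given below as a description, since its share over all genes was not counted.

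Tnf, the ligand, ranged from 55.1 to 241.4 CPM in phagocytosis libraries (median 114.5), against 20.2 to 180.2 CPM in control libraries (median 57.2). The states overlapped, but 15 of 16 phagocytosis libraries lay above the control median, and the control value of 180.2 CPM was that of male WT control 2. Means were 130.8 ± 54.6 CPM in phagocytosis (SD, n = 16) and 68.2 ± 48.7 CPM in control (SD, n = 8), a log2 fold change of 1.10 ± 0.27 (SE; adjusted p = 0.00988). Tnf passed the threshold under every library left out in turn (log2 fold change 0.98 to 1.31) and under all 8 other settings (0.89 to 1.29). Without male WT control 2 it was 1.31 ± 0.28 (adjusted p = 0.00644).

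Of the inhibitors, Nfkbia rose. It ranged from 253 to 823 CPM in phagocytosis libraries (median 419.6) and from 151 to 669 CPM in control libraries (median 260.0). Again 15 of 16 phagocytosis libraries were above the control median, and 4 of 8 control libraries were below all phagocytosis libraries. Mean levels were 435.5 ± 161.6 CPM in phagocytosis and 308.5 ± 168.5 CPM in control (SD, n = 16 and 8), with a log2 fold change of 0.58 ± 0.18 (adjusted p = 0.0307). This call depended on single control libraries: the adjusted p was 0.0843 without male WT control 1, 0.0813 without female WT control 2, 0.0752 without male NL4-/- control 2 and 0.0705 without female NL4-/- control 1. Without male WT control 2 the fold was larger, 0.77 ± 0.18 (adjusted p = 0.00683). Nfkbiz, whose product IkBζ acts in the nucleus as a cofactor for selected inflammatory genes, had 81.7 ± 28.4 CPM in phagocytosis and 66.9 ± 42.2 CPM in control (log2 fold change 0.50 ± 0.18, adjusted p = 0.0611). It passed the threshold when any 1 of 6 phagocytosis libraries was left out (male WT 2 and 4, male NL4-/- 3 and 4, female NL4-/- 3 and 4; adjusted p 0.0231 to 0.0494), without a count filter (adjusted p = 0.0369) and with phagocytosis libraries 1 and 2 alone (0.73, adjusted p = 0.00357). Nfkbie, which encodes the cytoplasmic inhibitor IkBε, had 28.8 ± 15.02 CPM in phagocytosis and 44.0 ± 29.9 CPM in control (-0.55 ± 0.25, adjusted p = 0.153). Its fold was -0.22 without male WT control 2 and -0.86 with phagocytosis libraries 1 and 2 alone (adjusted p = 0.0265). Tnfaip3, which encodes the ubiquitin-editing enzyme A20, had 35.7 ± 20.1 CPM in phagocytosis and 36.8 ± 44.5 CPM in control (0.25 ± 0.31, adjusted p = 0.654). Its fold was -0.02 with length-scaled counts and 0.64 without male WT control 2, which alone held 145.3 CPM. The inhibitor genes thus did not share a direction: the fold was negative for Nfkbie and positive for the other 3 on summed counts, and only Nfkbia was called.

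Of the subunits, Rel and Nfkb1 fell. Rel, which encodes the haematopoietic subunit c-Rel, ranged from 13.8 to 47.8 CPM in phagocytosis libraries (median 27.2), against 23.5 to 60.7 CPM in control libraries (median 46.8). Only 1 of 16 phagocytosis libraries lay above the control median. Means were 29.3 ± 9.15 CPM in phagocytosis and 45.3 ± 12.9 CPM in control (log2 fold change -0.64 ± 0.18, adjusted p = 0.0173). The male WT control libraries were apart from each other, at 23.5 and 60.6 CPM, and without male WT control 2 the fold was -0.41 (adjusted p = 0.219). The call was also lost without female WT control 2 (adjusted p = 0.0602), female NL4-/- control 1 (0.0701) or male NL4-/- control 1 (0.101). Without all 3 satellite-rich control libraries the fold of Rel was -0.28 (adjusted p = 0.578), while those of Tnf (1.29, adjusted p = 0.0354) and Nfkbia (0.82, adjusted p = 0.0266) still passed.

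Nfkb1 ranged from 90.9 to 175.5 CPM in phagocytosis libraries (median 111.8) and from 128.6 to 182.2 CPM in control libraries (median 161.8). Its distributions were the most separated of the 10 on the low side: 12 of 16 phagocytosis libraries lay below the lowest control library. No such count was made over all genes. Means were 120.2 ± 23.3 CPM in phagocytosis and 158.5 ± 20.3 CPM in control, with a log2 fold change of -0.40 ± 0.12 (adjusted p = 0.0235). The adjusted p passed 0.05 on leaving out female NL4-/- control 2 (0.0532), female NL4-/- control 1 (0.0827), male WT control 2 (0.0848), female WT control 2 (0.108) or male NL4-/- control 2 (0.179), with folds of -0.29 to -0.40. In TPM, Rel and Nfkb1 were close between the states: Nfkb1 had 44.3 ± 15.7 TPM in phagocytosis and 46.7 ± 16.2 TPM in control, and Rel 5.63 ± 2.28 TPM in phagocytosis and 5.91 ± 1.28 TPM in control. Deposited TPM share a fixed total with satellite-like transcripts. In the 3 satellite-rich control libraries Nfkb1 had 36.7 (female NL4-/- 1), 24.4 (male NL4-/- 1) and 31.7 TPM (male WT 2). The other control library of each group had 72.6, 60.85 and 58.2 TPM, in that order. In CPM the same libraries had 182.1, 128.6 and 166.5, and 165.2, 182.2 and 153.7. The part of satellite-like transcripts in the TPM values was not tested. With counts scaled by length the folds stayed negative but missed the threshold (Nfkb1 -0.44, adjusted p = 0.0815, and Rel -0.54, adjusted p = 0.0704). Nfkb1 also missed it without a count filter (-0.39, adjusted p = 0.0637), without the 3 satellite-rich control libraries (-0.41, adjusted p = 0.127) and with phagocytosis libraries 1 and 2 alone (-0.32, adjusted p = 0.118).

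The other 3 subunits were not called. Rela, the main transactivating subunit, had 121.6 ± 28.1 CPM in phagocytosis and 111.0 ± 15.4 CPM in control (log2 fold change 0.12 ± 0.14, adjusted p = 0.637). The non-canonical pair had wide ranges in both states: Nfkb2 spanned 29.1 to 198.3 CPM in phagocytosis libraries and 24.3 to 177.1 CPM in control libraries (0.26 ± 0.28, adjusted p = 0.608). Relb spanned 17.9 to 140.1 CPM in phagocytosis libraries and 20.2 to 142.3 CPM in control libraries (0.19 ± 0.23, adjusted p = 0.653). For both genes 2 libraries set the upper end, male WT phagocytosis 3 and male WT control 2. Without male WT control 2 the fold was 0.48 for Nfkb2 (adjusted p = 0.358) and 0.58 for Relb (adjusted p = 0.106).

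**Figure D2:**
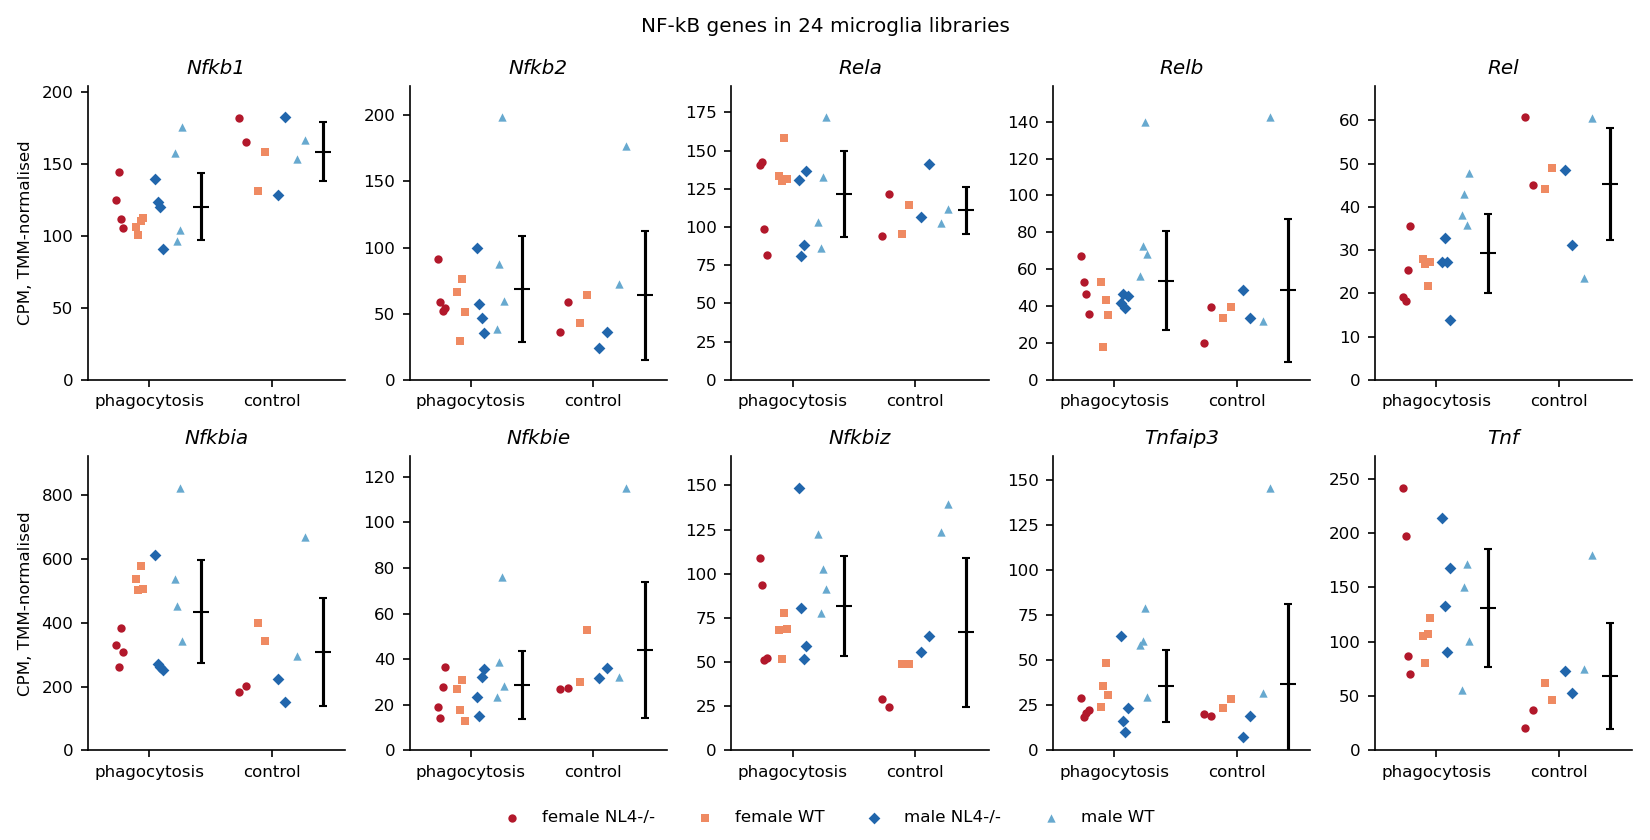
TMM-normalised CPM (linear axes from 0) of each gene in every library, phagocytosis left of control, with sex and genotype by colour and shape; black bars are the mean ± SD of a state, and the lower end of the Tnfaip3 control bar is cut off at 0. Tnf lies above the control median in 15 of 16 phagocytosis libraries, Nfkb1 lies below the lowest control in 12 of 16, and the high control point in Nfkb2, Relb, Nfkbie and Tnfaip3 is male WT control 2.

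Markers of other cells moved with the states. All 14 border-associated macrophage genes were higher on average in phagocytosis, with a sum of 1447 to 2489 CPM against 882 to 1744 CPM in control (exact permutation test, adjusted p = 0.000136 over 10 lists), most of it Stab1 (1466 CPM in phagocytosis and 996.5 CPM in control). Likewise all 12 monocyte genes were higher, with sums of 43.0 to 297.4 CPM in phagocytosis and 23.6 to 100.3 CPM in control (adjusted p = 0.0140). Sums were also higher for the neuron list (13.8 to 108.5 CPM in phagocytosis and 5.91 to 13.4 CPM in control, adjusted p = 0.00130; Uchl1 alone averaged 32.4 CPM in phagocytosis and 2.02 CPM in control, and 10 of its 13 genes, among them Syn1, Map2 and Tubb3, averaged at most 1 read a library), the oligodendrocyte list (168.6 to 371.2 CPM in phagocytosis and 125.1 to 193.1 CPM in control, adjusted p = 0.00416) and the endothelial list (492.6 to 677.9 CPM in phagocytosis and 303.8 to 593.1 CPM in control, adjusted p = 0.00553; mostly Bsg, at 524.1 CPM in phagocytosis and 436.9 CPM in control, with 7 of 11 genes at most 1 read a library). Of the 11 oligodendrocyte genes, 6 averaged at most 1 read a library, and 6 were higher on average in phagocytosis. Among those tested only Mbp was called (1.53 ± 0.35, adjusted p = 0.00545). Cnp, the most abundant, was not (0.25 ± 0.14, adjusted p = 0.249), and Mag had a negative fold (-0.26 ± 0.17). The microglia list was lower (43460 ± 9306 CPM in phagocytosis and 54300 ± 7610 CPM in control, adjusted p = 0.0178), as was the lymphocyte list (167.7 to 471.4 CPM in phagocytosis and 251.7 to 565.0 CPM in control, adjusted p = 0.0445). The lymphocyte difference lay in Ighm (236.9 CPM in phagocytosis and 343.7 CPM in control): the other 13 genes summed to 57.0 ± 35.8 CPM in phagocytosis and 49.6 ± 18.0 CPM in control, and 9 of the 14 averaged at most 1 read a library. Neutrophil and astrocyte sums did not pass (adjusted p = 0.130 and 0.807), and 7 of 12 neutrophil genes, Ly6g, Camp and Ngp among them, averaged at most 1 read a library. Of the 10 astrocyte genes 9 were nevertheless higher on average in phagocytosis, with Gfap (adjusted p = 0.000971) and Aldoc (2.32 ± 0.65, adjusted p = 0.0108) called higher, while the most abundant, Slc1a3, fell (-0.59 ± 0.15, adjusted p = 0.00906). The 21 dissociation and immediate early genes had sums of 2193 to 6438 CPM in phagocytosis and 1013 to 4446 CPM in control (adjusted p = 0.789), among which Atf3 (2.21 ± 0.22, adjusted p = 8.93e-08), Dusp1 (0.87 ± 0.24, adjusted p = 0.0181) and Klf6 (0.38 ± 0.11, adjusted p = 0.0239) rose. These marker genes were named after their values were seen. The part of these cells in the levels of Tnf, Nfkbia, Rel and Nfkb1 was not tested.

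Of the 38 genes listed as NF-kB targets, 33 were tested: 16 rose, 1 fell and 16 were not called, where 8.41% of all genes rose and 5.18% fell. They had a median log2 fold change of 0.87, the same with the 3 genes that had 0 reads in a group (Ptgs2, Cxcl2 and Il12b) set to a bound from 3 counts over a state. The list was chosen with earlier results of these data known. Its counts set against all genes, here and below, are therefore a description and no test. Gadd45b, a stress sensor, had 47.5 ± 27.1 CPM in phagocytosis and 3.44 ± 2.03 CPM in control (log2 fold change 3.80 ± 0.40, adjusted p = 9.51e-08). The chemokine genes Ccl4 (499.3 ± 197.2 CPM in phagocytosis and 56.5 ± 17.3 CPM in control, 3.16 ± 0.30) and Ccl3 (484.6 ± 229.4 CPM in phagocytosis and 83.8 ± 38.4 CPM in control, 2.67 ± 0.35) separated the states without overlap, and Cxcl16 rose by 1.41 ± 0.18. Genes that separated the states fully were not counted over all genes. The target that fell was the cytokine gene Il1a (-0.83 ± 0.19, adjusted p = 0.00350), named after its value was seen. Il1b, also seen first, had a fold of 1.02 ± 0.42 that was not called (adjusted p = 0.118). Without the 3 satellite-rich control libraries 9 of 34 targets tested were called, all higher, against 3.84% of all genes called (3.09% higher).

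Upstream of the subunits, 2 of 26 tested kinases and adaptors rose and none fell (median -0.12). These were the non-canonical IkB kinase gene Ikbke, with 42.5 ± 17.3 CPM in phagocytosis and 6.25 ± 4.48 CPM in control (2.85 ± 0.37, adjusted p = 3.77e-06), and the adaptor gene Traf1, with 30.5 ± 27.5 CPM in phagocytosis and 5.94 ± 3.27 CPM in control (2.35 ± 0.66, adjusted p = 0.0210). The Traf1 call was lost without a count filter (adjusted p = 0.0533), without the 3 satellite-rich control libraries (0.168) and without any 1 of 4 control libraries (adjusted p 0.0535 without female WT control 2, 0.0582 without male NL4-/- control 1, 0.0618 without male WT control 2 and 0.0687 without female NL4-/- control 2). Of 18 tested further inhibitors, 2 rose and none fell (median 0.24): Nlrc5 (44.3 ± 26.4 CPM in phagocytosis and 15.96 ± 14.26 CPM in control, 1.73 ± 0.40, adjusted p = 0.00509) and Commd1 (0.58 ± 0.19, adjusted p = 0.0406). With length-scaled counts Nlrc5 was at 0.74 (adjusted p = 0.389), and without the satellite-rich libraries at 1.52 (adjusted p = 0.104). Commd1 missed the threshold without a count filter (adjusted p = 0.0715), without the satellite-rich libraries (0.117), with phagocytosis libraries 3 and 4 alone (0.132), without 1 of 5 control libraries (female WT 2, male WT 1, female NL4-/- 2, male NL4-/- 1 or 2; adjusted p 0.0590 to 0.141) or 1 of 4 phagocytosis libraries (male NL4-/- 2 or 4, male WT 2, female WT 2; adjusted p 0.0523 to 0.0558). Of 16 tested genes for TNF processing, receptors and mRNA control, 2 rose and 1 fell (median -0.01). The risers were Rhbdf2, whose product iRhom2 brings the TNF-shedding protease ADAM17 to the cell surface in myeloid cells (109.9 ± 36.4 CPM in phagocytosis and 56.1 ± 15.7 CPM in control, 0.99 ± 0.19, adjusted p = 0.000913), and the lymphotoxin receptor gene Ltbr (0.73 ± 0.18, adjusted p = 0.00666; 0.0647 without the satellite-rich libraries). Tia1, which encodes an RNA-binding protein that represses Tnf translation, fell (-0.49 ± 0.15, adjusted p = 0.0236). Tia1 missed the threshold without 1 of 6 control libraries (female WT 1 or 2, female NL4-/- 2, male WT 1, male NL4-/- 1 or 2; adjusted p 0.0529 to 0.1248) and was at -0.25 with length-scaled counts (adjusted p = 0.558). Its adjusted p was 0.0667 without a count filter, 0.0560 without the satellite-rich libraries and 0.107 with phagocytosis libraries 3 and 4 alone. With 13.6% of all genes called, counts of 2 in 26, 2 in 18 and 3 in 16 are close to that background and are no result about these 3 lists.

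Within single sex and genotype groups, with 4 phagocytosis and 2 control libraries each, none of the 10 genes was called by edgeR, where 45 genes passed in female NL4-/- (0.459%), 57 in female WT (0.581%), 59 in male NL4-/- (0.602%) and 32 in male WT (0.326%). At an unadjusted p under 0.05 the counts among the 10 were 4, 1, 2 and 0 in that order of groups. Over all 9803 genes they were 937, 1187, 1062 and 804, so that 1, 2 and 0 are no result about the 10. DESeq2 called 2 of the 10 in female NL4-/- and 0 in the others. Over all genes it called 156, 217, 151 and 85 in the same order. The largest folds were in female NL4-/-. Tnf there had 241.4, 197.3, 87.0 and 70.0 CPM in phagocytosis and 20.2 and 36.8 CPM in control, with no overlap (log2 fold change 2.30 ± 0.59, adjusted p = 0.102). Nfkbiz had 108.7, 93.6, 51.0 and 52.2 CPM in phagocytosis and 29.2 and 24.6 CPM in control, again with no overlap (1.49 ± 0.40, adjusted p = 0.0989). DESeq2 called both (adjusted p = 0.000645 and 0.0268). With edgeR, Nfkbiz was called without female NL4-/- phagocytosis 3 or male NL4-/- phagocytosis 1, and both genes without female NL4-/- phagocytosis 4.

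The female NL4-/- libraries also differed in other lists. The 21 dissociation and immediate early genes summed to 2439 to 3681 CPM in female NL4-/- phagocytosis, against 1013 and 1417 CPM in female NL4-/- control, which were the lowest of all 24 libraries; the other 6 control libraries had 3924 to 4446 CPM. Within female NL4-/- phagocytosis, libraries 1 and 2, which held the higher Tnf and Nfkbiz, had microglia sums of 34580 and 35840 CPM and border-associated macrophage sums of 2077 and 2064 CPM. Libraries 3 and 4 had 55153 and 56088 CPM and 1466 and 1447 CPM. The same split by number was seen in the other phagocytosis groups. Libraries 1 and 2 had a lower mean microglia sum than libraries 3 and 4 in 4 of 4 groups (36400 and 50720 CPM in male NL4-/-, 41280 and 44390 CPM in female WT, 32830 and 51240 CPM in male WT), without overlap in 3. Their lymphocyte sum was likewise lower, and their border-associated macrophage sum higher, in 4 of 4 groups. Mean Tnf was higher in libraries 1 and 2 in 2 of 4 groups and Nfkbiz in 3 of 4. The labels do not say what the numbers stand for, and control libraries carry only 1 and 2. The part of these lists in Tnf and Nfkbiz was not tested.

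In female WT, Tnf had 105.3, 80.6, 107.2 and 121.8 CPM in phagocytosis and 61.6 and 46.6 CPM in control, without overlap (0.94 ± 0.52, adjusted p = 0.489). In male NL4-/-, the values were 213.7, 132.9, 90.6 and 168.0 CPM in phagocytosis and 72.8 and 52.7 CPM in control, also without overlap (1.26 ± 0.55, adjusted p = 0.405). In male WT, 55.1, 150.5, 171.4 and 100.7 CPM in phagocytosis overlapped with 74.7 and 180.2 CPM in control (-0.12 ± 0.48, adjusted p = 0.975). In 3 of the 4 groups every phagocytosis library thus exceeded both control libraries. The share of all genes that separated this way was not counted, so this is no result about Tnf. The male WT value turned on 1 library: without male WT control 2 it was 0.69 ± 0.66. The same omission turned the male WT folds of Nfkb2 to 0.41 (with it -0.42), of Relb to 1.41 (with it -0.09), of Nfkbie to 0.39 (with it -0.86), of Tnfaip3 to 0.85 (with it -0.67) and of Rel to 0.83 (with it -0.06), and raised that of Nfkbia to 0.89 (with it 0.15), none past the threshold. These rest on 1 remaining control library, which is assumed to vary like the other groups.

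**Figure D3:**
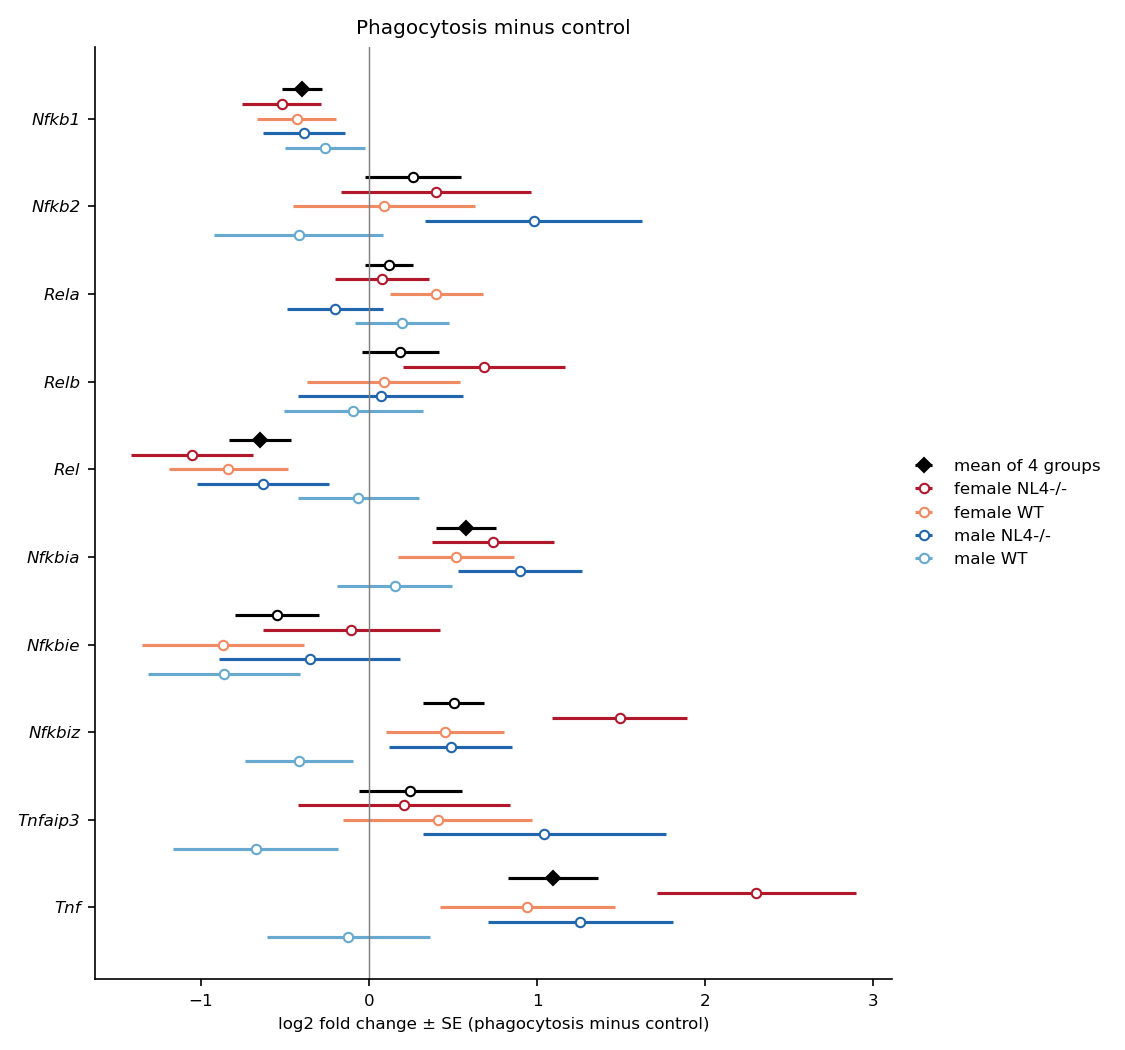
Log2 fold change ± SE, phagocytosis minus control, of each gene as the mean of 4 groups (black) and in each sex and genotype group; filled diamonds passed an adjusted p of 0.05 and open circles did not. Tnf, Nfkbia, Rel and Nfkb1 are filled in the mean, and no single group has a filled symbol. Male WT lies below 0 for every gene except Rela and Nfkbia, which for Tnf and Tnfaip3 turned without male WT control 2.

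For NL4-/- against WT, no gene of 9803 was called by edgeR in either sex or state (0% in each of the 4 comparisons). At an unadjusted p under 0.05 there were 510 genes in female phagocytosis, 210 in female control, 465 in male phagocytosis and 328 in male control, and DESeq2 called 3, 4, 0 and 5 genes in that order, none of them among the 10. Of the 10 genes, 1, 1, 4 and 5 had an unadjusted p under 0.05.

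Nfkbia was the one with an unadjusted p under 0.05 in all 4, always lower in NL4-/-. In female phagocytosis it had 331.0, 262.3, 385.1 and 308.2 CPM in NL4-/-, against 536.3, 503.6, 579.3 and 505.0 CPM in WT, with no overlap (log2 fold change -0.72 ± 0.28, adjusted p = 0.938). In female control it had 182.1 and 203.4 CPM in NL4-/- and 399.7 and 342.5 CPM in WT, without overlap (-0.94 ± 0.40, adjusted p = 1). In male phagocytosis, 3 NL4-/- libraries had 270.0, 261.5 and 253.0 CPM and NL4-/- library 1 had 614.0 CPM, against 536.6, 454.1, 822.9 and 344.5 CPM in WT, so that the groups overlapped through 1 library (-0.63 ± 0.28, adjusted p = 1). In male control it had 223.3 and 151.0 CPM in NL4-/- and 296.7 and 669.1 CPM in WT, without overlap (-1.37 ± 0.41, adjusted p = 1), and -0.66 without male WT control 2. The direction was thus shared by both sexes and both states, while none of the 4 differences passed adjustment over all genes. How many of all genes had 1 direction, or an unadjusted p under 0.05, in all 4 comparisons was not counted. The pattern is therefore a description. These comparisons use different libraries.

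In male control the other differences were mostly smaller without male WT control 2. Tnfaip3 had 7.28 and 19.2 CPM in NL4-/- and 32.0 and 145.3 CPM in WT (-2.76 ± 0.73, adjusted p = 1), and -1.25 without that library. Nfkb2 had 24.3 and 36.0 CPM in NL4-/- and 72.6 and 177.1 CPM in WT (-2.06 ± 0.69), and -1.26 without it. Nfkbiz had 55.8 and 64.7 CPM in NL4-/- and 123.8 and 139.3 CPM in WT (-1.13 ± 0.41), and -1.03 without it. Nfkbiz therefore differed by a similar amount with and without male WT control 2, and its 2 WT libraries were close to each other. Relb went to 0.36 (with it -1.12), Nfkbie to 0.08 (with it -1.15) and Rel to 0.77 (with it -0.11). In male phagocytosis Relb had 41.7, 46.6, 38.8 and 45.4 CPM in NL4-/- and 56.2, 72.6, 140.1 and 68.4 CPM in WT, without overlap (-0.96 ± 0.36, adjusted p = 1). Tnf had folds of 0.49 ± 0.40 in female phagocytosis, 0.34 ± 0.39 in male phagocytosis, -0.87 ± 0.66 in female control and -1.04 ± 0.61 in male control, with unadjusted p of 0.105 to 0.398. Without male WT control 2 the male control fold of Tnf was -0.24 ± 0.73.

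**Figure D4:**
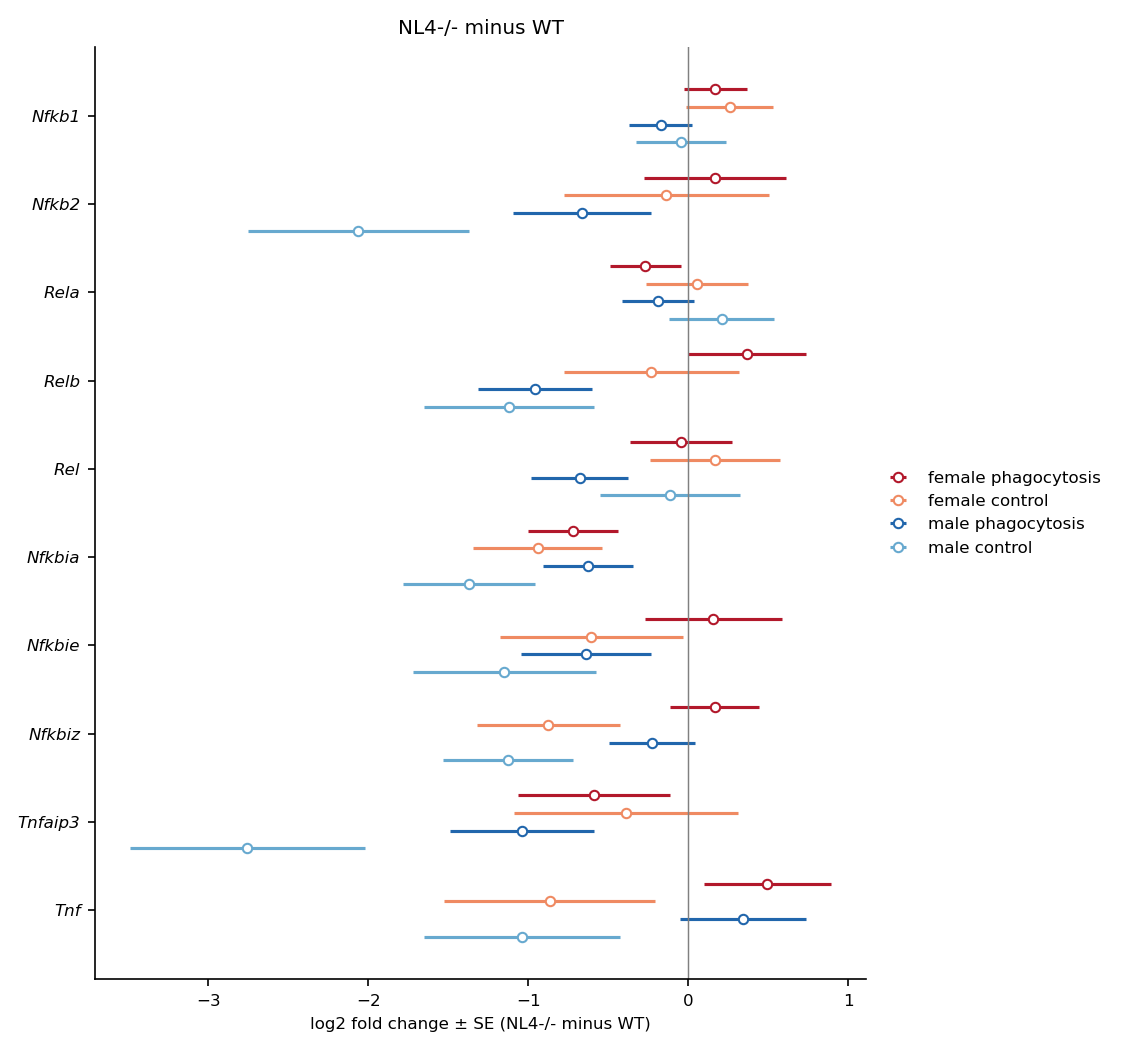
Log2 fold change ± SE, NL4-/- minus WT, of each gene in female and male phagocytosis and control libraries; open circles did not pass an adjusted p of 0.05, and none did. Nfkbia lies left of 0 in all 4 comparisons (-0.63 to -1.37), and the male control values of Nfkb2 and Tnfaip3 lie beyond -2.

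Between the sexes within phagocytosis, none of the 10 genes was called, against 1 gene in NL4-/- (0.0102%) and 2 genes in WT (0.0204%) over all genes; DESeq2 called 2 and 7 genes, none of the 10. In WT, 4 of the 10 were at an unadjusted p under 0.05, all higher in males, where 740 of all 9803 genes were. Relb had 56.2, 72.6, 140.1 and 68.4 CPM in male WT and 53.1, 17.9, 43.5 and 35.3 CPM in female WT, without overlap (log2 fold change 1.11 ± 0.36, adjusted p = 0.536). Rel had 38.2, 43.0, 35.8 and 47.8 CPM in male WT and 28.1, 26.9, 21.7 and 27.3 CPM in female WT, also without overlap (0.66 ± 0.30, adjusted p = 0.631). It was not counted how many of all genes separated the sexes in this way. The other 2 were Nfkbie (0.86 ± 0.41) and Nfkbiz (0.56 ± 0.27). In NL4-/- all 10 folds lay between -0.21 and 0.28, and none had an unadjusted p under 0.05. The difference between the genotypes in this sex contrast was itself tested: for Relb it was -1.32 ± 0.51 (adjusted p = 0.977), and edgeR called 0 genes of 9803 (0%).

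Interactions with state called 0 of 9803 genes for genotype and 0 for sex (0% each; 276 and 190 genes at an unadjusted p under 0.05, and 1 and 1 by DESeq2). Tnf had a genotype and state term of 1.37 ± 0.53 (adjusted p = 1), a larger phagocytosis minus control difference in NL4-/- than in WT. Nfkbiz had 0.97 ± 0.36 for genotype and state (adjusted p = 1) and -0.94 ± 0.36 for sex and state (adjusted p = 1). Without male WT control 2 the Tnf term was 0.98 ± 0.55 and the Nfkbiz terms were 0.93 ± 0.39 and -0.88 ± 0.39. None of these passed adjustment, and the state comparisons in which Tnf and Nfkbiz stood out in female NL4-/- are not shown to differ from the other groups.

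Among the 16 phagocytosis libraries, Tnf varied with some of the other genes once each group's mean was removed. Of 9 relations, those with the non-canonical subunits had the largest coefficients over all 16: Pearson's r was 0.68 for Nfkb2 (permutation p = 0.00349, adjusted p = 0.0314; Spearman's rho 0.72, p = 0.00201, adjusted p = 0.0131) and 0.64 for Relb (p = 0.00745, adjusted p = 0.0335; rho 0.70, p = 0.00292, adjusted p = 0.0131). Leaving out the 2 libraries farthest from the median of Tnf, female NL4-/- phagocytosis 4 and male WT phagocytosis 1, gave r = 0.61 for Nfkb2 and 0.52 for Relb, below the 0.73 of Nfkbiz; Tnfaip3 then had 0.60. Nfkbiz had r = 0.55 (adjusted p = 0.0598) and rho = 0.61 (adjusted p = 0.0415). Rela had r = 0.56 (adjusted p = 0.0598), Tnfaip3 0.43 (adjusted p = 0.151) and Rel -0.48 (adjusted p = 0.112). The feedback inhibitor Nfkbia, which was higher with Tnf between the states, had r = 0.26 with it among phagocytosis libraries (adjusted p = 0.443). Nfkb1 (r = -0.10) and Nfkbie (r = -0.03) showed no relation that could be detected with 16 libraries. The permutations shuffled all 16 deviations freely and did not allow for the group means removed. The p-values of these relations are therefore too small, and the coefficients are given as a description. The points share their library and its depth.

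**Figure D5:**
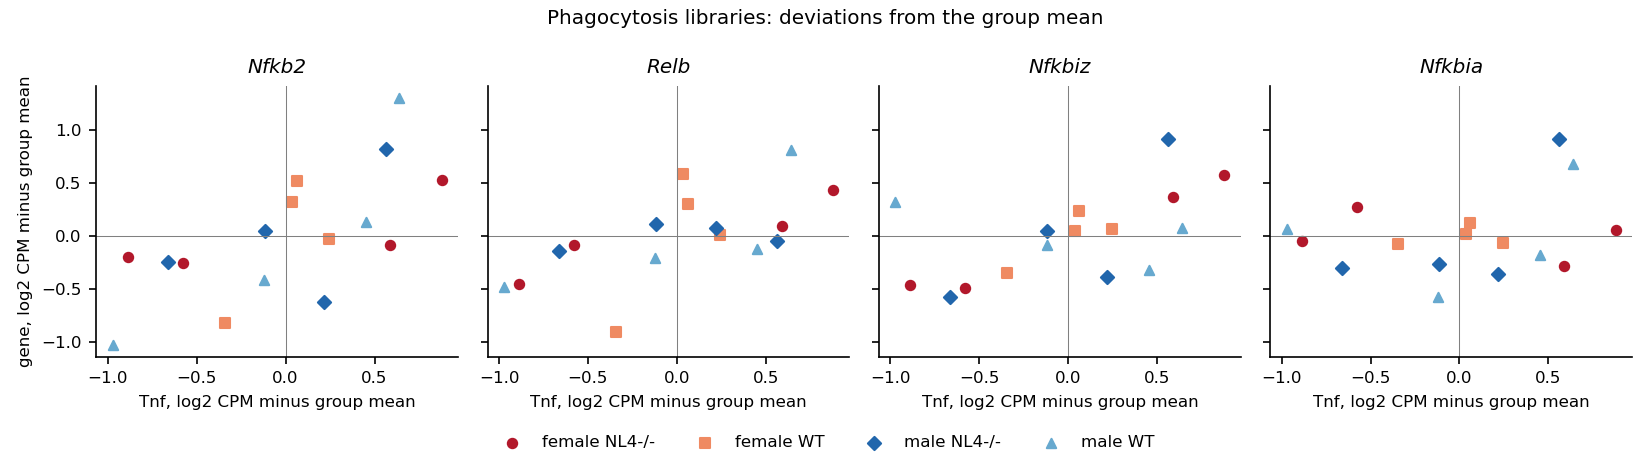
Deviation of log2 CPM from the group mean in the 16 phagocytosis libraries, Tnf on the horizontal axis and Nfkb2, Relb, Nfkbiz or Nfkbia on the vertical axis; colour and shape give sex and genotype, and grey lines mark 0. Nfkb2 (r = 0.68) and Relb (r = 0.64) climb with Tnf, while Nfkbia (r = 0.26) is scattered.

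Over all 24 libraries, the genes most like each of the 10 in log2 CPM are given as a description, since the libraries share state and depth. Tnf was most like Ccdc86 (r = 0.85), Ankrd33b (0.82) and Cxcl16 (0.81). Nfkbiz was most like Trib1 (0.84), Kdm6b (0.84) and the immediate early gene Ier2 (0.82), and Nfkbia most like Kdm6b (0.80), Tlr2 (0.79) and Tnfaip3 (0.78). Nfkbia and Tnfaip3, both feedback inhibitors, were thus each among the 3 genes most like the other. Nfkb2 was most like Cd83 (0.79), Relb had Nfkb2 second on its list (0.75) after Csf2rb2 (0.75), and Nfkbie was most like Ncf1 (0.78). Nfkb1 was most like Ccdc88b (0.76), Rela like the predicted gene Gm28661 (0.71) and Rel like the splicing kinase gene Clk1 (0.84).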

How the data were processed

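The deposited tables give, for each of 24 libraries and 116945 transcripts, lengths, effective lengths, expected counts and TPM, the columns of salmon and similar quantifiers per the file headers; its version, index and filters on reads were not given in the labels. The authors' expected counts are raw and may be fractions of reads; the deposited TPM correct for effective length and sum to the same total in each library. Of the transcripts, 116023 matched GENCODE vM21 (GRCm38), and 922, holding 0.274 to 0.379% of reads, were left out. Expected counts were summed per gene and rounded.

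The test was edgeR 4.0.16's quasi-likelihood F test (TMM, filter by group at a minimum count of 10, 8 group means over all 24 libraries, no covariate), with Benjamini-Hochberg adjustment over 9803 genes at a threshold of 0.05 in each of 14 comparisons; p-values are two-sided. The code was tested on simulated data. CPM in the text are TMM-normalised, marker sums are scaled to the library total, and log2 CPM carry a prior count of 1. Marker sums were compared by an exact permutation test over the 735471 arrangements of 16 and 8 libraries, and relations with Tnf by permutation tests with 100000 resamples. The alternatives were DESeq2 1.42.0, its size factors, no count filter, length-scaled counts, a replicate block, library subsets and leaving out each library. Y-linked reads (Ddx3y and Eif2s3y) were 0 to 2 in libraries labelled female and 7 to 37 in those labelled male.

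The 10 genes and all lists were chosen with earlier results of these data known. From each pathway list up to 4 called genes with the smallest adjusted p are named. Reads are amplified without molecular identifiers, so depth limits counting error only.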

Additional observations from a re-analysis of the deposited data

Results flagged for a closer look

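Among the 40 sets of 4 phagocytosis libraries examined (10 genes in 4 groups), 2 held a library far from the other 3; chance gives about 1 in 20. Nfkbia in male NL4-/- phagocytosis 1 was at 614.0 CPM, against 253.0 to 270.0 CPM in the other 3 libraries. Rela in female WT phagocytosis 3 was at 158.4 CPM, against 129.8 to 133.3 CPM in the other 3.

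The state difference of Nfkbiz was flagged because its libraries separated in opposite directions in separate groups. All phagocytosis libraries lay above both control libraries in female NL4-/- and in female WT, whereas in male WT the highest phagocytosis library, at 122.6 CPM, lay below both control libraries (123.8 and 139.3 CPM). In male NL4-/- the states overlapped (51.8 to 148.5 CPM in phagocytosis and 55.8 to 64.7 CPM in control), with a positive fold (0.49 ± 0.37). The lower values were thus not shared by both male groups. Separation of 4 libraries from 2 is not rare by chance, and its share over all genes was not counted. The interaction of sex and state over both genotypes was -0.94 ± 0.36 on the log2 scale (adjusted p = 1).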

How the results depend on the processing

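Over the mean of 4 groups, 4 of the 10 genes were called between states; the count was 1 with length-scaled counts (Tnf), 2 without the 3 satellite-rich control libraries (Nfkbia and Tnf) and 2 with phagocytosis libraries 3 and 4 alone (Nfkb1 and Tnf), and 1 to 5 with 1 library left out. The 1332 genes called became 880, 410 and 782 under those settings and 781 to 1508 with 1 library left out. The called targets became 9 without the satellite-rich libraries. In female NL4-/-, where edgeR called 0 of the 10, DESeq2 called 2, no count filter 2, phagocytosis libraries 1 and 2 alone 2, and leaving out 1 library 0 to 2. Over all genes, no count filter gave 176 calls in female NL4-/-. In male control, 2 of the 10 (Nfkbia and Tnfaip3) were called between genotypes without a count filter (adjusted p = 0.00840 and 0.00161), where 8 genes were called in all. Tnfaip3 turned to -0.0218 with length-scaled counts. The astrocyte sum differed by 2.26 CPM by library total and by -3.23 CPM with TMM. The cause was not tested in any of these.

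Deviations over all genes did not correlate between same-numbered libraries (median r = 0.006, 5 of 68 pairs over 0.1; 5 libraries correlated best with their own number), so the numbers were not taken as pairs. Microglia, lymphocyte and border-associated macrophage sums nevertheless split phagocytosis libraries 1 and 2 from 3 and 4 in the same direction in 4 of 4 groups, and 1772 genes were called with libraries 1 and 2 alone. Nfkbia missed the threshold with libraries 3 and 4 alone (adjusted p = 0.124) and with length-scaled counts (0.103), and Rel with libraries 3 and 4 alone (0.0648). The fit with a replicate block called 5 of the 10 genes (Rel, Nfkbia, Nfkbie, Nfkbiz and Tnf) and 1646 genes in all, and 1 of the 10 in female NL4-/- (Nfkbiz). With it, Nfkb1 was -0.35 (adjusted p = 0.0922), Nfkbie -0.84 (adjusted p = 0.0352) and Nfkbiz 0.68 (adjusted p = 0.0103).

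Depth limits Nfkbie, Rel and Tnfaip3 most, with 547, 560 and 582 reads over all libraries and as few as 7, 7 and 3 in 1 library.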

Other observations

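Reads of some of the 10 genes were divided among transcripts unequally in the states, as sums over libraries with no test. The second annotated transcript of Tnf held 2.10% of Tnf reads in phagocytosis and 13.9% in control. For Relb, the leading transcript held 57.4% in phagocytosis and 78.7% in control. For Nfkb2, the transcript that led over all libraries held 47.1% in phagocytosis and 22.4% in control. Another Nfkb2 transcript led in control, with 42.7% there and 35.9% in phagocytosis. Rela (95.3% in phagocytosis and 99.2% in control) and Nfkbia (94.3% in phagocytosis and 91.8% in control) were almost entirely 1 transcript. Such divisions are estimates that the quantifier made from shared reads.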
